A study of Mus musculus with 6 samples.

Results

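The 9 genes described here make, bind or read out retinoic acid, the hormone-like derivative of vitamin A. They are the retinal-forming enzyme gene Rdh10, the retinal reductase gene Dhrs3, the retinaldehyde dehydrogenase genes Aldh1a2 and Aldh1a3, the cellular retinoic acid-binding protein genes Crabp1 and Crabp2, and the nuclear retinoic acid receptor genes Rara, Rarb and Rarg. They were chosen by name, with earlier results of these data known. Every probe set that the platform annotation assigns to 1 of these symbols alone was taken, which gave 13 of the 45037 probe sets tested. A probe set is a group of short probes on the array that together read 1 transcript or several transcripts of a gene. Aldh1a3 was read by 3 probe sets, Rarg and Rdh10 by 2 each and the other genes by 1.

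RNA of mouse back skin at E15.5, a stage at which hair follicles are forming, was measured on Affymetrix MOE430 2.0 arrays. The control group was 3 samples from Fzd6 +/- embryos, and the knockout group was 3 samples from Fzd6 -/- embryos, both on a C57BL6/129 mixed background. Fzd6 encodes Frizzled 6, a Wnt-family receptor of the planar polarity system that orients hair follicles. The controls thus also carry a mutant copy, and no wild-type skin was compared. The sources used here state neither whether a sample is 1 embryo nor what a replicate number means. The p-values therefore set the genotype difference only against the spread between these samples, as limma moderates it over all probe sets.

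Retinol is oxidised to retinal in a reversible step, in which RDH10 works forward and DHRS3 backward, and retinal is oxidised irreversibly to retinoic acid by the ALDH1A enzymes. Inside the cell the acid is bound by CRABP1 and CRABP2, of which CRABP2 is known to pass it to the receptors, and it is removed by enzymes of the CYP26 family. The receptors RARα, RARβ and RARγ bind DNA as partners of the RXR proteins. In skin, retinoids are known to act on keratinocyte differentiation, and RARγ is known as the main retinoic acid receptor of the epidermis.

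The arrays read as skin with epidermis and dermis. The basal keratin Krt14 lay between 12.22 and 13.36 and the collagen gene Col1a2 between 13.39 and 14.35 on the log2 scale, where array medians were 5.99 to 6.03. The array labelled knockout replicate 1 stood apart. Its markers of fibroblasts averaged 0.53 and those of endothelium and pericytes 0.78 below their own 6-array means, while its periderm markers averaged 1.04 above. Control 1 was also low in the fibroblast list, at −0.26, and in the endothelium and pericyte list, at −0.37. Its periderm markers, at −0.40, were low as well. Y-linked genes were at 7.88 to 8.39 on average in 4 arrays, and at only 3.12 and 3.15 in control 2 and knockout 3. The targeted gene was lower in all 3 knockout arrays than in all 3 controls in its brightest probe set, with 9.50, 9.51 and 9.11 in controls 1 to 3 and 9.07, 9.01 and 8.71 in knockouts 1 to 3. That difference of −0.44 did not pass the test (limma adjusted p = 0.909). Of the dimmer Fzd6 probe sets, 1 differed by −0.67 without overlap (limma adjusted p = 0.864) and the other by −0.0097 with overlap. The labels do not say which part of Fzd6 was deleted, so this does not measure the loss of the receptor.

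No difference between the genotypes passed the test in any of the 9 retinoid genes. Of the 13 probe sets, 0 were called by limma at an adjusted p under 0.05, and over all probe sets 0 were called (0.0%). At an unadjusted limma p under 0.05 the members again gave 0, beside 5.21% of all probe sets. Of the 13 differences, 5 were above 0 and 8 below, with a median of −0.029 (log2) beside a median of 0.0018 over all probe sets. This balance turned without knockout 1, where 7 of the 13 were above 0 with a median of 0.0078. All probe sets moved the same way, from 22796 of 45037 above 0 to 24061, with a median of 0.010. Without replicate 1 of both groups 5 of the 13 were above 0 with a median of −0.041, beside 24025 and 0.011 over all probe sets. The 95% confidence interval included 0 in all 13. The widest departure was that of Crabp2, with a difference of 0.44, and next came Rarb at −0.27 and Crabp1 at −0.21. Separation of the groups without overlap was seen in 3 of the 13 probe sets, beside 11.6% of all probe sets. In 1 the knockout was above (6.55% of all) and in 2 it was below (5.0% of all). Those 3 were Crabp2, Aldh1a2 and the dimmest probe set of Aldh1a3, and the gap between the groups was 0.0251, 0.0315 and 0.00298 in them. With the replicate number as a block, 2 of the 13 probe sets, Crabp2 and Rarb, had an unadjusted limma p under 0.05, beside 12.0% of all probe sets, and 0 passed after adjustment, beside 0.00666% of all. Knockout exceeded control within all 3 replicate numbers in 2 of the 13 probe sets (17.7% of all) and lay below it within all 3 in 3 (17.9% of all).

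**Figure D1:**
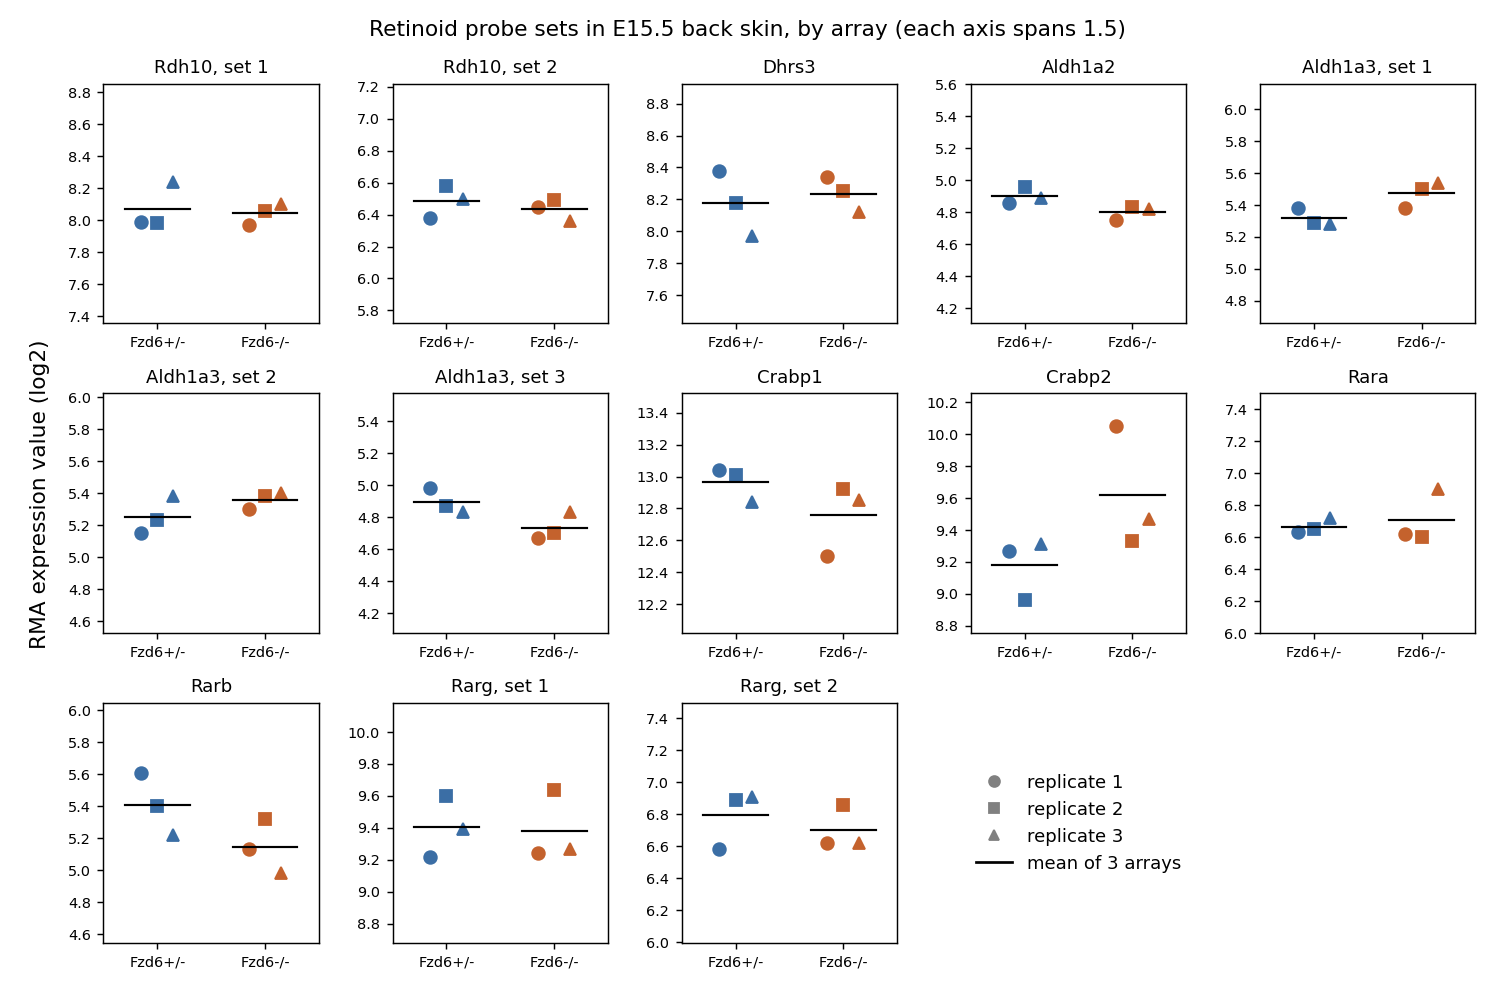
RMA expression (log2, vertical axis) of the 13 probe sets in the 3 control (Fzd6 +/-, blue) and 3 knockout (Fzd6 -/-, orange) arrays. Symbols mark the replicate number, black lines the mean of 3 arrays, sets of a gene are numbered from the brightest, and every axis spans the same height; Crabp2 has the widest range, with knockout 1 at 10.05.

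The enzymes that set the supply of retinal were described first. Rdh10, whose product forms retinal from retinol, measured 7.99, 7.98 and 8.24 in controls 1 to 3 and 7.97, 8.06 and 8.10 in knockouts 1 to 3 in its brighter probe set. The groups overlapped, and control 3 was the highest array. The difference was −0.029 (95% confidence interval −0.26 to 0.20, limma adjusted p = 0.987), which as a fold is 0.98 (0.84 to 1.15). The other Rdh10 probe set, dimmer at 6.36 to 6.58, gave −0.056 (−0.26 to 0.15). The sign of the brighter probe set was not stable, since the difference was 0.055 without control 3, 0.0088 without knockout 1 and 0.0080 after a further quantile normalisation.

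Dhrs3, whose product turns retinal back to retinol and whose transcription retinoic acid is known to induce, measured 8.38, 8.18 and 7.97 in controls 1 to 3 and 8.34, 8.25 and 8.12 in knockouts 1 to 3. In both groups replicate 1 was the highest array and replicate 3 the lowest. The spread within each group exceeded the difference of 0.058 (−0.22 to 0.34, limma adjusted p = 0.976), or 1.04-fold (0.86 to 1.27). Without control 3 the difference was −0.045.

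The ALDH1A enzymes make retinoic acid itself. ALDH1A2 is the enzyme of much of the embryonic mesoderm, and its gene read 4.86, 4.96 and 4.89 in the controls and 4.75, 4.83 and 4.82 in the knockouts. All 3 knockout arrays lay below all 3 controls, by a gap of 0.0315. Means were 4.90 ± 0.047 and 4.80 ± 0.046 (SD, n = 3), and the difference was −0.10 (−0.28 to 0.073, limma adjusted p = 0.918). The range of this probe set over the 6 arrays, 0.21, was wider than that of only 15.3% of all probe sets. Its level lay below the median of all probe sets, where RMA compresses differences.

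The 3 probe sets of Aldh1a3, whose product makes retinoic acid in several embryonic epithelia, did not point the same way. The brightest read 5.38, 5.29 and 5.28 in the controls and 5.38, 5.50 and 5.54 in the knockouts, which gave 0.16 for the difference (−0.039 to 0.35, limma adjusted p = 0.909). Knockout 1 lay among the controls there, and the other knockout arrays lay above them. The middle probe set gave 0.11 (−0.097 to 0.32) and the dimmest −0.16 (−0.36 to 0.037). In the dimmest the knockout arrays, at 4.67, 4.70 and 4.83, all lay below the controls at 4.98, 4.87 and 4.83, with a gap of 0.00298. The mean of the 3 probe sets differed by 0.034. All 3 were below the median of all probe sets.

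The binding proteins had the widest ranges among these genes, together with Rarb. Crabp1, expressed in embryonic mesenchyme and neural crest derivatives, was read by a very bright probe set, whose level exceeded that of 99.2% of all probe sets. Its values were 13.04, 13.01 and 12.84 in controls 1 to 3 and 12.50, 12.92 and 12.85 in knockouts 1 to 3. Knockout 1 was the lowest array, and the remaining knockout arrays lay within the range of the controls. Means were 12.96 ± 0.11 and 12.76 ± 0.22 (SD, n = 3), which gave −0.21 for the difference (−0.50 to 0.088, limma adjusted p = 0.914), or 0.87-fold (0.71 to 1.06). Without knockout 1 the difference was −0.081, and without replicate 1 of both groups it was −0.041.

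In a piece of skin, fewer cells of a type and less RNA per cell cannot be told apart. Crabp1 lay 0.36 below its 6-array mean in knockout 1, where the 10 fibroblast markers averaged −0.53 and the 11 markers of the dermal condensate, the mesenchymal cluster under each hair placode, averaged −0.38. In control 1 the same marker lists averaged −0.26 and −0.15 while Crabp1 was at its highest, 0.18 above its mean. The fibroblast list had 3 of 10 and the condensate list 5 of 11 genes with higher values in the knockout, beside 52.4% of all genes. Without knockout 1 these counts were 8 of 10 and 7 of 11, beside 10183 of all 18193 genes. The mean differences of the 2 lists were −0.073 and −0.065, and they turned to 0.17 and 0.11 without knockout 1. Over the arrays the fibroblast list ran from −0.26 to 0.24 in controls and from −0.53 to 0.25 in knockouts. The condensate list ran from −0.15 to 0.20 and from −0.38 to 0.19. The part of these markers in the Crabp1 difference was not tested.

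Crabp2 encodes the binding protein that carries retinoic acid to its receptors, and in human skin its transcript is known to be induced by retinoic acid. It read 9.27, 8.96 and 9.31 in controls 1 to 3 and 10.05, 9.33 and 9.47 in knockouts 1 to 3. All 3 knockout arrays lay above all 3 controls, but knockout 2 exceeded control 3 by only 0.0251, and knockout 1 stood far above the rest. Means were 9.18 ± 0.19 and 9.62 ± 0.38 (SD, n = 3), and the difference was 0.44 (−0.014 to 0.89), or 1.36-fold (0.99 to 1.86). It did not pass the test, with a limma adjusted p = 0.909, or a limma adjusted p = 0.34 with the replicate number as a block. Knockout minus control was 0.78, 0.38 and 0.16 within replicate numbers 1 to 3. Without knockout 1 the difference was 0.22, and without replicate 1 of both groups it was 0.27. The range over the 6 arrays, 1.09, exceeded that of 97.2% of all probe sets.

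Crabp2 was highest and lowest in the same arrays as the suprabasal, periderm and melanocyte marker lists. Its deviation from the 6-array mean was 0.65 in knockout 1, where the 12 suprabasal markers averaged 0.60 and the 8 periderm markers 1.04. In control 2, its lowest array at −0.44, these lists averaged −0.30 and −0.49. The suprabasal list, with 12 of 12 genes at higher values in the knockout, ran from −0.30 to −0.13 in controls and from −0.0049 to 0.60 in knockouts. The periderm list, with 8 of 8 genes higher, ran from −0.49 to −0.29 and from −0.0037 to 1.04. Of all 18193 genes, 52.4% were higher. Without knockout 1, 10 of the 12 suprabasal and 7 of the 8 periderm genes were higher, beside 10183 of all genes. The suprabasal list holds a dim gene with a mean of only 2.72, and the smallest difference in that list was 0.0027. The basal epidermis list overlapped between the groups, at −0.37 to 0.15 and −0.20 to 0.20. The same highest and lowest arrays were not particular to epidermal keratinocyte lists. The 6 melanocyte markers, all with higher values in the knockout, averaged 0.50 in knockout 1 and −0.25 in control 2. Their groups overlapped, with control 1 at 0.0029 and knockout 3 at −0.11. The mast cell list did not share these arrays, since it was highest in knockout 3, at 0.38, and lowest in control 1, at −0.49. With 7 of 7 genes higher, it ran from −0.49 to 0.064 in controls and from 0.23 to 0.38 in knockouts. Its mean difference was 0.61 both with and without knockout 1. The part of these markers in the Crabp2 difference was not tested.

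**Figure D2:**
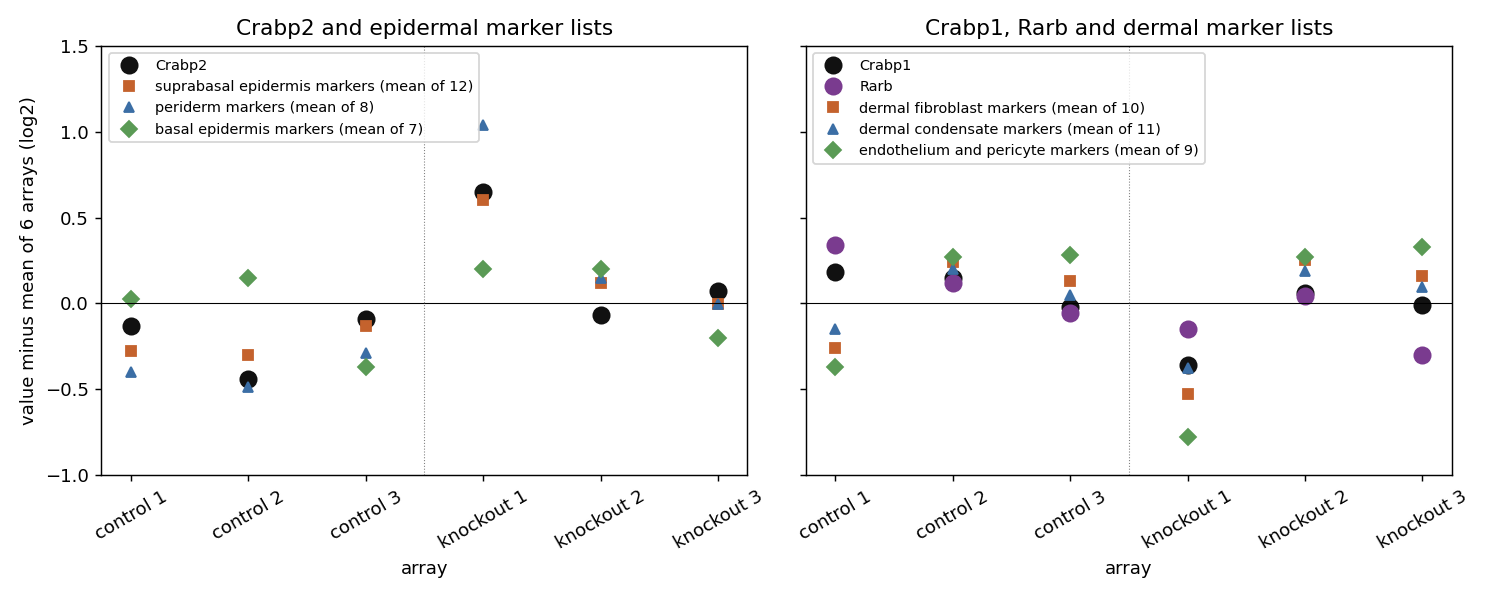
Values by array after subtraction of each gene's mean over the 6 arrays (log2, vertical axis) for Crabp2 beside epidermal marker lists (left) and for Crabp1 and Rarb beside dermal marker lists (right). Points of marker lists are means over their genes, and the dotted line separates controls from knockouts; Crabp2 and the suprabasal list both peak in knockout 1, at 0.65 and 0.60.

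Crabp2 was the only member with a brightest probe set ranging over at least 1 on the log2 scale, and the genes most like it over the 6 arrays were sought among 11848 genes above the median level. Likeness was the root mean square difference between array values after each gene's own mean was subtracted. The nearest was Asprv1, which encodes a protease of the differentiating epidermis, at 0.055. S100a6, a calcium-binding protein gene, followed at 0.064, and Esyt3, which encodes an extended synaptotagmin, at 0.066. Since they were picked for array values close to those of Crabp2, their differences and their highest array follow from that choice and are given as a description. The knockout minus control differences were 0.51, 0.36 and 0.43, each with a limma adjusted p of 0.909. All 4 genes were highest in knockout 1, where Asprv1 read 13.09, S100a6 12.51 and Esyt3 7.35.

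The receptor Rara, widely expressed in embryonic tissues, read 6.63, 6.65 and 6.72 in the controls and 6.62, 6.60 and 6.90 in the knockouts. Knockout 3 was above all other arrays, and the remaining knockouts lay just below the controls. The difference was 0.041 (−0.20 to 0.28, limma adjusted p = 0.982), or 1.03-fold (0.87 to 1.21). Without knockout 3 it was −0.055.

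Rarg, the main retinoic acid receptor gene of epidermis, gave 9.22, 9.60 and 9.39 in controls 1 to 3 and 9.24, 9.64 and 9.27 in knockouts 1 to 3 in its brighter probe set. Replicate 2 was the highest array of each group. The groups covered nearly the same range, and the difference of −0.022 (−0.35 to 0.31, limma adjusted p = 0.993) was smaller than either group's SD of 0.19 and 0.22. As a fold it was 0.98 (0.78 to 1.24). The dimmer probe set gave −0.092 (−0.37 to 0.19). Its lowest array was control 1 at 6.58, and knockouts 1 and 3 both read 6.62, against 6.86 to 6.91 in the other 3 arrays. Without knockout 1 the difference of the brighter set was 0.050, without control 2 it was 0.076 and without knockout 3 it was 0.034. Rarg lies on chromosome 15, as Fzd6 does.

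Rarb is both a receptor gene and a known target of retinoic acid, through an element in its promoter to which RAR and RXR bind. It read 5.61, 5.40 and 5.22 in controls 1 to 3 and 5.13, 5.32 and 4.98 in knockouts 1 to 3. Knockout 2 lay above control 3, so the groups overlapped, while knockouts 1 and 3 lay below every control. Means were 5.41 ± 0.20 and 5.14 ± 0.17 (SD, n = 3), and the difference was −0.27 (−0.58 to 0.037, limma adjusted p = 0.909), or 0.83-fold (0.67 to 1.03). Knockout minus control was −0.48, −0.082 and −0.24 within replicate numbers 1 to 3 (limma adjusted p = 0.363 with that number as a block). The difference kept its sign when each array was left out, between −0.37 and −0.17. This probe set lay below the median of all probe sets. Rarb was highest in control 1, at 0.34 above its mean, where the fibroblast list averaged −0.26, and lowest in knockout 3, at −0.30, where that list averaged 0.16. The part of the dermal markers in the Rarb difference was not tested.

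The promoter of Rarb is shown because it holds the sequence through which retinoic acid is known to act on it, and that of Cyp26a1, which encodes a retinoic acid-degrading enzyme and is known for the same kind of control, is shown beside it. The element, called DR5, is a direct repeat of the receptors' short recognition site with 5 bases of any kind between the copies. It was searched on both strands, with either purine at the first base of a copy and G or T at the third. It was found in 29 of 32851 promoter windows of 250 bases before a RefSeq gene start (0.0883%). RefSeq promoters were at hand for 6 of the 9 genes, in 12 windows, and 1 of these, that of Rarb, held it. Of the 55 other retinoid genes with a window, Cyp26a1 held it. The same sites spaced by 1 or 2 bases (DR1 and DR2) were in 0.164% and 0.174% of all windows and in 0 of the 12 member windows. Capitals mark the element, and each sequence is the 250 bases before the start on the strand of the gene, 5′ to 3′, in RefSeq's build GRCm38.p6: Rarb on the minus strand at chr14:16575477-16575726 and Cyp26a1 on the plus strand at chr19:37697558-37697807.
Rarb: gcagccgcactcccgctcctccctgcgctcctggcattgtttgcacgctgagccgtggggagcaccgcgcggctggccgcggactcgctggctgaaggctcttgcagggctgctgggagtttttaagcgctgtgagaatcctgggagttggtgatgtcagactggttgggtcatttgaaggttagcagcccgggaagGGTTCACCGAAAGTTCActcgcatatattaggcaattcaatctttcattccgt
Cyp26a1: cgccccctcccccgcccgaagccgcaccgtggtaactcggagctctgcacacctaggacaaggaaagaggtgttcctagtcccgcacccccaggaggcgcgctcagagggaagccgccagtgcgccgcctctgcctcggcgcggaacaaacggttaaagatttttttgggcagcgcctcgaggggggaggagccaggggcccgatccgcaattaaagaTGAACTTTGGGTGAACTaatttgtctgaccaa
The element of Rarb spans bases 53 to 37 before the start and reads on the gene's own strand, and that of Cyp26a1 spans bases 32 to 16 and reads on the opposite strand. A match to these letters describes the sequence and not the binding of a receptor in this tissue.

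Both measured genes of retinoic acid degradation overlapped between the groups. Cyp26a1 read 4.76, 4.61 and 4.47 in the controls and 4.59, 4.48 and 4.61 in the knockouts, which gave −0.052 for the difference (−0.28 to 0.18, limma adjusted p = 0.973). Cyp26b1, whose enzyme degrades retinoic acid in embryonic skin and limb, read 6.66, 7.35 and 7.08 against 6.91, 7.31 and 7.25, which gave 0.13 for the difference (−0.31 to 0.56, limma adjusted p = 0.96). Cyp26c1 was not analysed here.

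**Figure D3:**
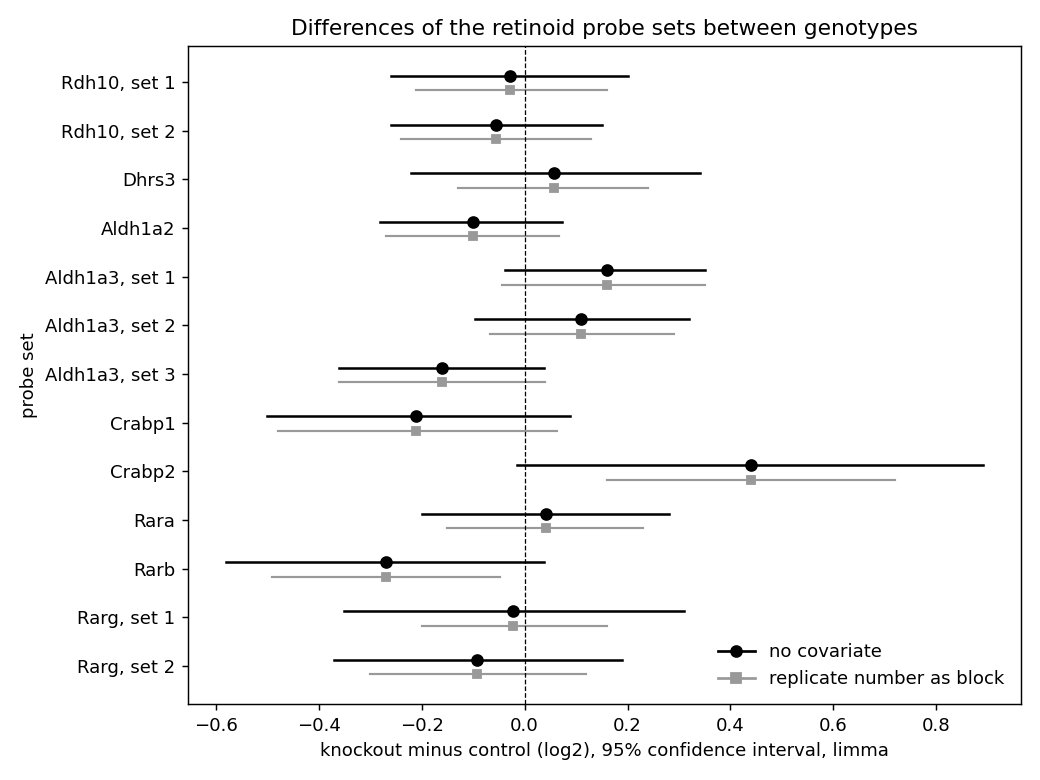
Knockout minus control differences (log2, horizontal axis) of the 13 probe sets with 95% confidence intervals from limma, without covariate (black circles) and with the replicate number as a block (grey squares). All black intervals include 0, and the grey intervals of Crabp2 and Rarb do not.

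The other genes of the pathway were taken from 5 lists with 79 different names, of which 69 were measured, and 1 name, Rdhe2, is a synonym of another listed gene, Sdr16c5. The value of a gene was that of its brightest probe set. Of these 69 genes, 0 passed the adjusted test, 43 had higher and 26 lower values in the knockout, and the median difference was 0.020, beside 0.0070 over all 18193 genes, of which 52.4% had higher values. Knockout 1 moved the median of the 69, which was 0.084 without it, with 47 genes higher. It was 0.070 without replicate 1 of both groups, with 45 higher. Over all 18193 genes 10183 were higher without knockout 1, with a median of 0.018. Without replicate 1 of both groups 10202 were higher, with a median of 0.019. At an unadjusted limma p under 0.05 there were 7 of the 69, all higher, beside 5.07% of all genes in either direction. Higher values were also the more common among all genes at that threshold, with 576 higher and 347 lower.

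Most of those 7 were enzymes that interconvert retinol and retinal. Of the 24 enzyme genes measured, 21 had higher and 3 lower values, with a median of 0.13, beside 52.4% of all genes higher. An unadjusted limma p under 0.05 was found in 4 of them, beside 5.07% of all genes. Because the lists were chosen with earlier results of these data known, these counts are only a description. Rdh9, of a cluster of similar retinol dehydrogenase genes, read 6.66, 6.98 and 7.63 in the controls and 8.74, 7.69 and 7.71 in the knockouts, which gave 0.96 for the difference (0.17 to 1.75, limma adjusted p = 0.909). Sequences shared within that cluster make its assignment uncertain. Sdr16c5, which encodes an epidermal retinol dehydrogenase, read 9.79, 9.34 and 10.40 against 11.06, 10.42 and 10.45, which gave 0.80 for the difference (0.14 to 1.46, limma adjusted p = 0.909). Knockout 1 was the highest array in both genes, and control 3 lay just below knockouts 2 and 3. Dhrs7, a short-chain dehydrogenase gene, differed by 0.40 (0.037 to 0.76), with −0.14 and 0.044 in its dimmer probe sets. Adh1, an alcohol dehydrogenase gene able to oxidise retinol and chosen here after its values were seen, had the largest difference of the list at 1.21 (0.075 to 2.34, limma adjusted p = 0.909), from 9.69, 8.48 and 9.11 to 11.41, 9.74 and 9.75. Adh5, the brightest gene of the list, differed by 0.0057 (−0.30 to 0.31).

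Without knockout 1, 18 of the 24 enzyme genes had higher values, with a median of 0.088, beside 10183 of all 18193 genes. Without replicate 1 of both groups 20 of the 24 had, with a median of 0.14, beside 10202 of all genes. The differences of Rdh9, Sdr16c5, Dhrs7 and Adh1 were 0.61, 0.59, 0.23 and 0.66 without knockout 1, and 0.40, 0.56, 0.31 and 0.95 without replicate 1. All 4 were smaller in both cases. Since knockout 1 was the highest array in each of them, the decrease without it was fixed in advance and is only a description. Hsd17b6, which encodes a hydroxysteroid dehydrogenase and was chosen after its values were seen, went from 0.19 to 0.24 and 0.30. Knockout 1, at 5.16, was the lowest knockout array of that gene, so its rise without knockout 1 was fixed as well. The suprabasal, periderm and melanocyte markers, given above for Crabp2, were also highest in knockout 1. Their part in these differences was not tested.

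**Figure D4:**
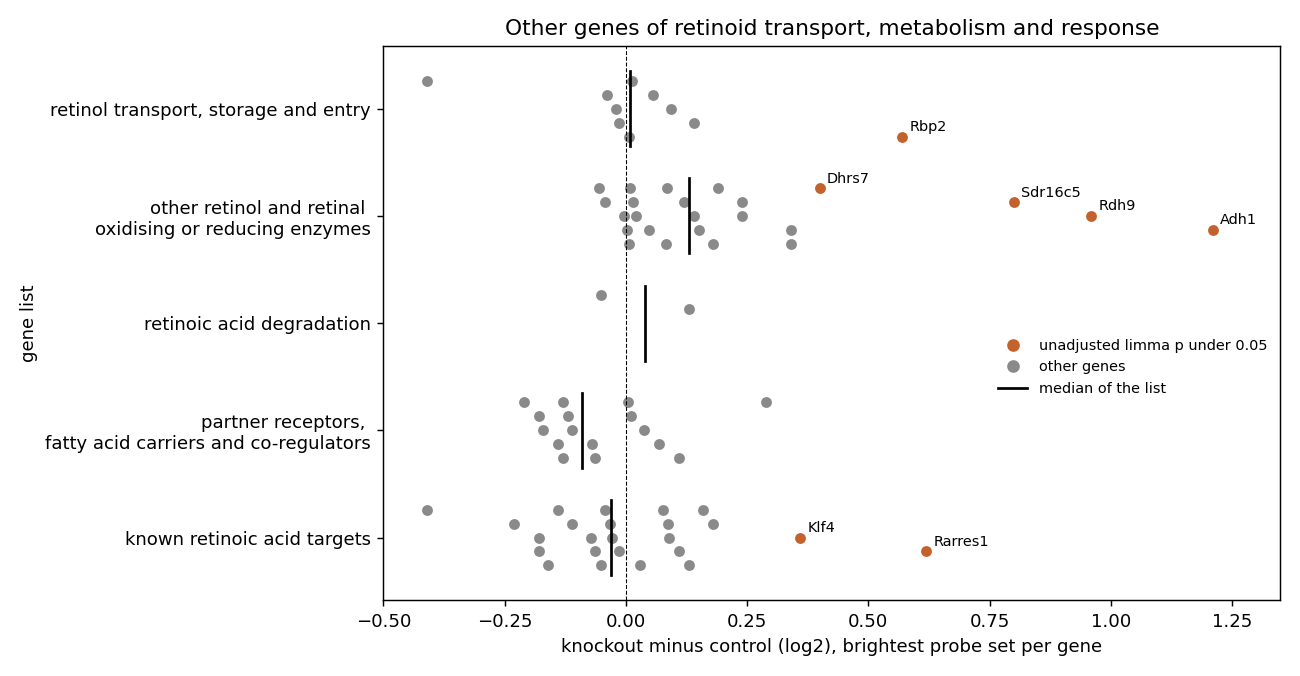
Knockout minus control differences (log2, horizontal axis) of the measured genes in 5 lists of other retinoid genes, 1 point per gene for its brightest probe set, with the list median as a black line. Orange points have an unadjusted limma p under 0.05 and are named. The enzymes of retinol and retinal lie mostly above 0, with a median of 0.13. The list of partner receptors, carriers and co-regulators has a median of −0.092, and the other medians run from −0.031 to 0.038. The lists were chosen with earlier results of these data known.

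Among the 10 measured genes of retinol transport, storage and entry, 6 had higher and 4 lower values, beside 52.4% of all genes higher. The median of the 10 was 0.0087. That median was 0.025 without knockout 1 and 0.063 without replicate 1 of both groups. Rbp2, a cellular retinol-binding protein gene known mainly from intestine, read 6.54, 6.66 and 6.86 in the controls and 7.61, 7.11 and 7.06 in the knockouts, without overlap, and differed by 0.57 (0.19 to 0.95, limma adjusted p = 0.909). It differed by 0.40 without knockout 1. Lrat, whose product esterifies retinol for storage, differed by −0.41 (−1.02 to 0.19), with control 2 the highest array at 5.88. Rbp3 differed by 0.14 (−0.097 to 0.37), and Dgat1, an acyltransferase gene and the brightest of the list, by −0.038 (−0.21 to 0.14).

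Of the 16 measured partner receptors, fatty acid carriers and co-regulators, 6 had higher and 10 lower values, beside 52.4% of all genes higher. An unadjusted limma p under 0.05 was found in 0 of the 16, beside 5.07% of all genes. The list had a median of −0.092. The median was 0.036 without knockout 1, with 10 higher, but −0.045 without replicate 1 of both groups, with 3 higher. Fabp5, which encodes the carrier known to pass retinoic acid to the receptor PPARδ, was very bright in all 6 arrays, at 14.21 to 14.32, and differed by 0.0052 (−0.17 to 0.18). Ppard, the gene of that receptor, differed by 0.29 (−0.031 to 0.61), and all 3 knockout arrays, at 6.68, 6.87 and 6.65, lay above the controls at 6.16, 6.61 and 6.58. Such separation, with the knockout higher, was seen in 1272 of all 18193 genes. The dimmer Ppard probe set differed by 0.053 (−0.15 to 0.26), and its groups overlapped. The nuclear receptor gene Nr2c2 differed by −0.21 (−0.46 to 0.029), and its dimmer probe sets by −0.19 to 0.15. The RXR gene Rxrg differed by −0.17 (−0.45 to 0.11).

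Of 24 measured genes known to respond to retinoic acid, 10 had higher and 14 lower values in the knockout, beside 52.4% of all genes higher. The median of the 24 was −0.031. The median was 0.11 without knockout 1 and 0.054 without replicate 1 of both groups, with 16 of 24 higher in each case. Over all 18193 genes 10183 and 10202 were then higher, with medians of 0.018 and 0.019. Rarres1, a gene named for its induction by a synthetic retinoid in human skin, read 6.69, 6.87 and 7.52 in the controls and 7.93, 7.51 and 7.51 in the knockouts, which gave 0.62 for the difference (0.10 to 1.14, limma adjusted p = 0.909). Klf4, a transcription factor gene of the differentiating epidermis, differed by 0.36 (0.067 to 0.66) and its dimmer probe set by 0.33 (0.045 to 0.62). Egr1, an immediate early gene, differed by −0.16 (−0.37 to 0.052). These genes have inputs other than retinoic acid, so their values do not measure its level.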

How the data were processed

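Skin RNA was extracted with Trizol and RNeasy, biotin labelled and hybridised, 1 array per sample, per the labels' protocols. The deposited values are RMA expression values, per the submitters' processing notes. No source used here names their log base, and since the deposited values run from 2.39 to 14.8 they were read as log2. RMA makes the arrays' distributions nearly equal and compresses differences of dim probe sets. No scanner files were used, so no detection calls were made. Of 45101 rows, 64 control probe sets were left out and no filter was applied. The platform annotation gave 34945 probe sets 1 symbol, 932 several and 9160 none, and symbols were updated through Entrez identifiers to RefSeq's GRCm38.p6 gene table (34741 matched).

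The knockout minus control differences come from limma 3.58.1 under R 4.3.3 (lmFit, eBayes, two-sided, no covariate). The p-values of all 45037 probe sets were adjusted together after Benjamini and Hochberg and called at adjusted p under 0.05. Intervals are 95% from that fit, and SDs are over 3 arrays, whose number limits the precision. The code was also run on simulated data with independent noise in each array. Those data lack deviations shared between arrays, so that run does not show how the test performs on these samples. Same-numbered arrays deviated together from their group means (r = 0.568, 0.359 and 0.124 over probe sets) and were therefore taken as pairs in a blocked alternative, on the data's evidence alone, which is mixed, since control 2 and knockout 3 also did so (r = 0.422). The members and lists were chosen with earlier results of these data known. Named are all members, Fzd6, and of each other list the brightest gene and the 3 with the smallest p (Cyp26 genes all), plus the 3 genes likest any member with a range of at least 1. One value per gene is that of its brightest probe set. Figures were drawn with matplotlib 3.10.9.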

Additional observations from a re-analysis of the deposited data

How the results depend on the processing

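Alternatives were centred arrays, quantile normalisation once more, weights for arrays, a prior with a variance trend, a filter at the median level, the replicate block, a covariate of Y-linked genes, each array left out, replicate 1 of both groups left out and, for genes with several probe sets, their mean. Over these, 118 of 126 values of the 9 gene differences kept their direction, and none passed the adjusted threshold (smallest limma adjusted p = 0.34). Those that turned were small: Rara ran from −0.055 to 0.096, Rarg from −0.15 to 0.076, Rdh10 from −0.075 to 0.055 and Dhrs3 from −0.045 to 0.16 when single arrays were left out, and Rdh10 was 0.0080 after a further quantile normalisation. The cause was not tested. Crabp2 ran from 0.22 to 0.58 when single arrays were left out and was 0.30 with array weights. Over all probe sets 3 were called with the replicate block, none of them a member, and the block changed no call of a member. Without adjustment, 2348 probe sets and 7 of the other retinoid genes had a limma p under 0.05. The filter on low values left 8 of the 13 probe sets and 6 of the 9 genes, so Aldh1a2, Aldh1a3 and Rarb have no value under it. The number of probe sets without overlap was 3 under both other normalisations too.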
